A study of Mus musculus with 4 samples.

Results

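The mouse angiogenesis PCR array carries 5 chemokine genes among its 84 genes, *Ccl2*, *Ccl11*, *Cxcl1*, *Cxcl2* and *Cxcl5*, and these were taken by symbol from the ratios by gene. Ischemic adductor and gastrocnemius muscle of FVB mice (FVB/NJ by the study's methods) was the source of the RNA, at 21 days after surgery on the femoral vessels. All animals had been given L-NAME (40 mg/kg), which blocks the synthesis of nitric oxide. One group had received intramuscular E-selectin/AAV2/2, an adeno-associated virus carrying the murine gene of the adhesion molecule E-selectin, and the control group LacZ/AAV2/2, the same vector type with a bacterial reporter gene, each at 1e11 viral genomes. Equal amounts of RNA from 3 mice were pooled per group by the sample records, although the study's methods allow for more, and 2 arrays were run from each pool. The 4 runs are therefore repeat runs of 2 pools, and a difference between runs shows the spread of the assay and not that between mice. There was no muscle without vector or without ischemia in the comparison, and the promoter that drives the transgene is not given in the sources used here.

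Chemokines are small secreted proteins that draw leukocytes out of the blood along a gradient, and are grouped by the spacing of their first cysteines. The CC members of the array are *Ccl2*, which encodes MCP-1 and attracts monocytes through the receptor CCR2, and *Ccl11*, which encodes eotaxin and attracts eosinophils through CCR3. The CXC members, *Cxcl1* (KC), *Cxcl2* (MIP-2) and *Cxcl5* (LIX), carry the ELR motif and attract neutrophils through CXCR2. In ischemic muscle, neutrophils are known as an early population and monocytes as cells that take part in the growth of collateral arteries. None of these receptors is on the array.

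In RefSeq (GRCm38.p6), *Cxcl1* and *Cxcl2* are direct neighbours on chromosome 5, with 0 protein-coding genes between them, and 4 such genes lie between *Cxcl5* and *Cxcl1*. *Ccl2* and *Ccl11* lie on chromosome 11 with 1 gene, *Ccl7*, between them. A promoter sequence from RefSeq (GRCm38.p6) was at hand for 2 of the 5 genes, and is shown because these neighbouring CXC genes had ratios more than 3-fold apart in both runs. The 100 bases before the start of each gene are given on the + strand, at chr5:90891145-90891244 for *Cxcl1* and chr5:90903799-90903898 for *Cxcl2*, with capitals for the runs of at least 10 bases that the pair shares.
Cxcl1: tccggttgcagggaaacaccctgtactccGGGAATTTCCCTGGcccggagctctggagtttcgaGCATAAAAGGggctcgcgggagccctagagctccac
Cxcl2: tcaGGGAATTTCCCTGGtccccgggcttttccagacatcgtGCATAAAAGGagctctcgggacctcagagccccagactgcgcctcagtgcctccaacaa
The longer shared run has 14 bases and opens with a match to the consensus motif of NF-κB, a transcription factor known to induce chemokine genes, at position -71 from the start in *Cxcl1* and -97 in *Cxcl2*. Of 32851 RefSeq promoters, 3.00% had a match on either strand in the same 100 bases before the start. The match is a description of the letters and no measure of binding.

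Each ratio sets an E-selectin/AAV2/2 run over its LacZ/AAV2/2 partner, by 2^-ΔΔCt, where Ct is the PCR cycle at which a well turns positive. *Gapdh* is 1 in both ratio columns, and this is called the *Gapdh* scale. The study's bioinformatics methods name 5 housekeeping genes as reference, and the housekeeping scale was obtained by subtracting their mean log2 ratio, 0.99 in run 1 and 0.81 in run 2. The study itself reports *Ccl2* as raised 2.14-fold, which equals the value on the *Gapdh* scale and not that on the housekeeping scale. The housekeeping genes did not move together. On the housekeeping scale their geometric means were 0.536 for *Gapdh*, 0.662 for *Hsp90ab1*, 1.21 for *Gusb*, 1.26 for *Actb* and 1.85 for *B2m*. Both scales are given, since the direction of *Ccl11* in both runs, and of *Ccl2* and *Cxcl1* in run 2, depended on the choice. The Ct values by well, which carry no gene names, did not give these ratios, so the ratios stand without a check against the raw readings. The values are ratios only, so no level of a chemokine in either group, and no order of levels between genes, can be given. All 5 chemokines had a ratio in run 1. In run 2, 4 of them did, and the entry of *Cxcl5* is a spreadsheet error. Over the array, 79 of the 84 genes had a ratio in run 1 and 81 in run 2.

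Among the CC chemokines, the *Ccl2* ratio was 1.39 in run 1 and 0.941 in run 2 on the housekeeping scale, with a geometric mean of 1.14. It was 2.77 and 1.65 on the *Gapdh* scale. The runs thus lay on either side of 1 with the first reference and both above it with the second. On the housekeeping scale *Ccl11* had the closest runs of the chemokines, at 0.619 and 0.616 (geometric mean 0.618). This too depended on the reference. With the housekeeping gene *Gusb* alone, the log2 SD between runs was 0.48 for *Ccl11* and 0.085 for *Ccl2*. On the *Gapdh* scale the *Ccl11* ratio was 1.23 in run 1 and 1.08 in run 2. The 2 runs differed 1.14-fold on the *Gapdh* scale, against 1.68-fold for *Ccl2*, yet the direction of *Ccl11* was lower with one reference and higher with the other.

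Among the CXC chemokines, *Cxcl1* had ratios of 1.80 in run 1 and 0.625 in run 2 on the housekeeping scale, with a geometric mean of 1.06. They were 3.58 and 1.09 on the *Gapdh* scale, a 3.27-fold difference between runs. The value in run 1 carried the mean, and run 2 was near 1 or below it. *Cxcl2* was lower in E-selectin/AAV2/2 in both runs with either reference. The first run gave 0.376 and the second 0.190 on the housekeeping scale (geometric mean 0.267), against 0.747 and 0.332 on the *Gapdh* scale. The 2 runs of *Cxcl2* differed 2.25-fold on the *Gapdh* scale, with the same direction. *Cxcl5* had a single ratio, from run 1, of 1.04 on the housekeeping scale and 2.07 on the *Gapdh* scale, and has no check between runs.

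**Figure D1:**
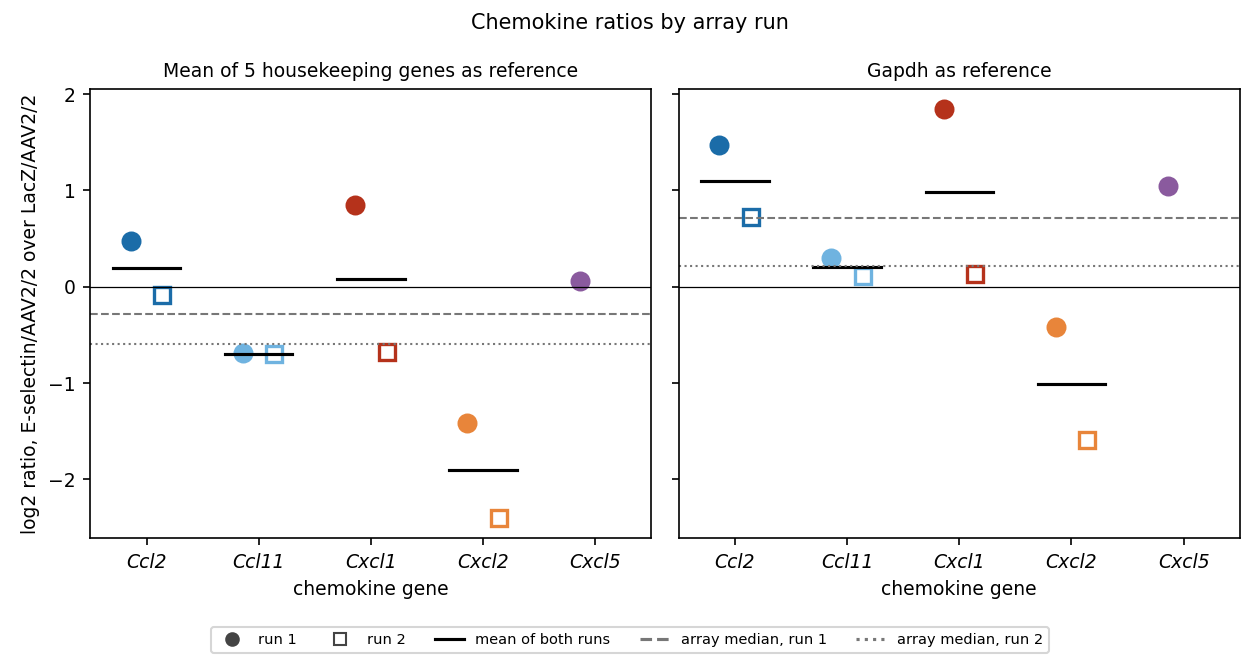
Log2 ratio of E-selectin/AAV2/2 over LacZ/AAV2/2 (y axis) for each chemokine gene (x axis), with the mean of 5 housekeeping genes (left) or *Gapdh* (right) as reference; filled circles are run 1, open squares run 2, black bars the mean of both runs, and grey lines the median of all array genes in each run. *Cxcl2* lies below 0 in both runs in both panels (log2 -1.41 and -2.40 on the left), *Ccl2* and *Cxcl1* straddle 0 on the left, and *Cxcl5* has 1 point.

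On the housekeeping scale, 0 of the 4 chemokines measured in both runs exceeded a 2-fold increase in E-selectin/AAV2/2 and 1, *Cxcl2*, was more than 2-fold lower. Over the 78 array genes with both runs, 3.85% were more than 2-fold higher and 11.5% more than 2-fold lower. On the *Gapdh* scale, 1 of the 4 (*Ccl2*, 2.14-fold) was more than 2-fold higher, beside 17.9% of the array, and 1 (*Cxcl2*, 0.498) was more than 2-fold lower, beside 1.28% of the array, which is *Cxcl2* alone. *Cxcl1* lay just under 2-fold on this scale, at 1.98.

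The log2 ratios of the 78 genes were tested with limma and Benjamini-Hochberg adjustment, which sets the difference between the 2 pools against the spread between array runs. On the housekeeping scale, 0 of the 4 chemokines passed an adjusted p of 0.05 in either direction, as 0% of the array was called higher and 0% lower. Without adjustment, *Ccl11* and *Cxcl2* were lower at p under 0.05 and 0 chemokines were higher, beside 27 lower (34.6%) and 5 higher (6.41%) of the 78 genes. The log2 fold change of *Cxcl2* was -1.91 (standard error 0.32, limma adjusted p = 0.0724), and that of *Ccl11* was -0.70 (standard error 0.17, adjusted p = 0.0918). *Ccl2* had a log2 fold change of 0.20 (standard error 0.23, limma adjusted p = 0.558) and *Cxcl1* one of 0.09 (standard error 0.46, adjusted p = 0.909). The *Cxcl1* standard error was the largest of the 4, as its runs were the farthest apart. On the *Gapdh* scale, 0 of the 4 chemokines passed, while 5.13% of the array was called higher. At an unadjusted p under 0.05 *Ccl2* was then higher, as was 21.8% of the array, and *Cxcl2* lower, as 1 of the 78 genes was (1.28%), *Cxcl2* itself. Their limma adjusted p were 0.135 and 0.205.

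The CC and the neutrophil-attracting CXC chemokines were then compared within each run, where the reference cancels because it is common to both genes. Over the genes with both runs, the mean log2 ratio of *Ccl2* and *Ccl11* exceeded that of *Cxcl1* and *Cxcl2* by 0.17 in run 1 and by 1.15 in run 2, with a mean of 0.66 ± 0.69 (SD, 2 runs). As ratios, the CC mean was 1.13-fold the CXC mean in run 1 and 2.21-fold in run 2. With *Cxcl5* included the difference in run 1 was 0.06. The difference was thus no larger than its spread between runs, and with 1 pool a group no test of it was made. It depended on which genes were in it. Without *Cxcl2* it was -0.96 in run 1 and 0.28 in run 2, with a mean of -0.34, and without *Ccl2* it was -0.41 and 0.84, with a mean of 0.21. Without *Cxcl1* it was 1.31 and 2.01, and without *Ccl11* 0.76 and 1.45.

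Genes of the same class also differed from each other. *Cxcl1* exceeded *Cxcl2*, its neighbour with the shared promoter run, by 2.26 log2 units in run 1 and 1.72 in run 2, which is 4.79-fold and 3.29-fold. *Ccl2* exceeded *Ccl11* by 1.17 and 0.61 log2 units, or 2.25-fold and 1.53-fold. Both gaps were larger than their change between runs (0.54 and 0.56). Across classes, *Ccl2* exceeded *Cxcl2* 3.71-fold in run 1 and 4.96-fold in run 2, and *Ccl11* exceeded it 1.65-fold and 3.25-fold. *Ccl2* and *Cxcl1* had opposite orders in the runs, with *Cxcl1* 1.29-fold higher in run 1 and *Ccl2* 1.51-fold higher in run 2. *Cxcl1* was 2.91-fold above *Ccl11* in run 1 and 1.01-fold in run 2. In run 1 *Cxcl5* lay below *Cxcl1* and *Ccl2* (by 1.73-fold and 1.34-fold) and above *Ccl11* and *Cxcl2* (by 1.68-fold and 2.77-fold).

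Of the 10 pairs, 6 were measured in both runs, and 5 of these had the same direction in both. One of the 5, *Ccl11* and *Cxcl1*, was only 1.01-fold apart in run 2. The pairs share genes, so the count is not one of independent comparisons. Only the 2 pairs that set *Cxcl2* against *Ccl2* or *Cxcl1* were more than 2-fold apart in both runs. Of the 4 pairs of a CC with a CXC gene that had both runs, the CC gene had the higher ratio in 2 in run 1 and in 3 in run 2. With the pairs of *Cxcl5* included, it was higher in 3 of 6 in run 1.

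**Figure D2:**
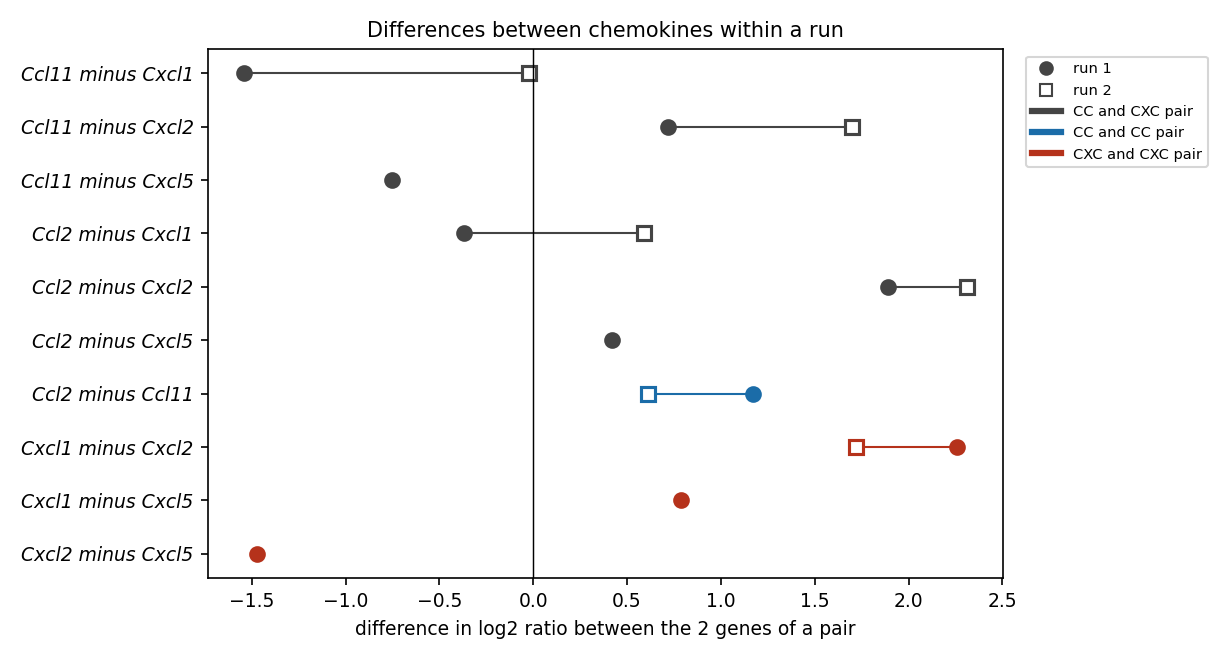
Difference in log2 ratio (x axis, log2 units) between the 2 genes of each of the 10 chemokine pairs (y axis) within a run; filled circles are run 1, open squares run 2, and colours mark the classes of the pair. *Ccl2* minus *Cxcl2* (1.89 and 2.31) and *Cxcl1* minus *Cxcl2* (2.26 and 1.72) lie far to the right in both runs, and *Ccl2* minus *Cxcl1* crosses 0; pairs with *Cxcl5* have 1 point.

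Ranks within a run do not depend on the reference either. *Cxcl2* had the lowest ratio of the 79 genes in run 1 and was ranked 80 of 81 in run 2, where only *Bai1*, an adhesion receptor that inhibits angiogenesis, was lower. By the mean of both runs it was ranked 78 of 78. *Ccl2* was ranked 13 of 79 in run 1 and 15 of 81 in run 2. *Ccl11* was ranked 60 and 48. *Cxcl1* was ranked 7 in run 1 and 46 in run 2, and *Cxcl5* was ranked 23 in run 1. Measured from the array median of the run, *Ccl2* was 1.69-fold and 1.42-fold above it, *Cxcl1* 2.19-fold above it in run 1 and 0.946 of it in run 2, and *Cxcl2* 0.457 and 0.287 of it.

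Run 1 lay above run 2 over most of the array, in 66 of the 78 genes on the *Gapdh* scale, with a median gap of 0.40 log2 units. The median gap was smaller on the housekeeping scale, at 0.21. On the *Gapdh* scale it was 1.71 for *Cxcl1*, the 6th widest in that direction, 1.17 for *Cxcl2* (the 9th), 0.75 for *Ccl2* and 0.19 for *Ccl11*. On this scale *Cxcl1*, *Cxcl2* and *Ccl2* thus lay farther apart between runs than the median array gene, and *Ccl11* less far.

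**Figure D3:**
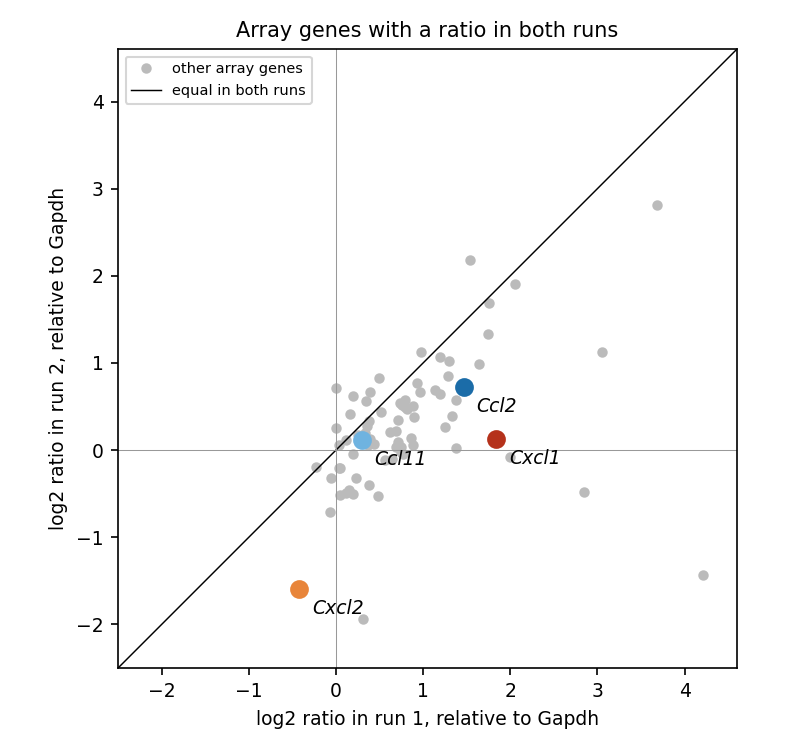
Log2 ratio of E-selectin/AAV2/2 over LacZ/AAV2/2 relative to *Gapdh* in run 1 (x axis) and run 2 (y axis) for the 78 array genes with both; coloured points are chemokines, grey points the other genes, and the diagonal marks equal runs. *Cxcl2* (-0.42 and -1.59) is the leftmost gene, *Ccl11* lies within the grey points near the origin, and *Cxcl1* (1.84 and 0.13) lies far below the diagonal.

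The genes with the most similar pair of ratios were sought by Euclidean distance in the 2 log2 ratios, a measure over 2 runs only. *Ccl2* was closest to *Ctgf*, a matricellular growth factor (distance 0.17), and to *Hif1a*, the oxygen-regulated transcription factor (0.23). *Ccl11* was closest to *Tgfb2* (0.08), a ligand of the TGF-β family, and to the matrix metalloproteinase gene *Mmp19* (0.08). *Cxcl1* was closest to *F2*, the prothrombin gene (0.01), and to *Ptgs1*, the cyclooxygenase-1 gene (0.26), which likewise had high ratios in run 1 only (3.56 and 4.00 on the *Gapdh* scale, against 1.10 and 0.946 in run 2). *Cxcl2* had no near gene, with *Bai1* at 0.81 and *Anpep*, an aminopeptidase gene, at 0.95.

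The reference moved the chemokines together, as it shifts all genes of a run by one amount. Over the 9 references tried, the fold change of *Ccl2* ran from 0.620 with *B2m* to 2.14 with *Gapdh*, above 1 with 6 and below 1 with 3. *Cxcl1* ran from 0.574 to 1.98 between the same 2 references, again above 1 with 6. *Cxcl5*, from run 1 alone, ran from 0.620 with *B2m* to 2.12 with the reverse transcription control wells. *Ccl11* ran from 0.334 with *B2m* to 1.15 with *Gapdh*, above 1 with 3 and below 1 with 6. *Cxcl2* ran from 0.145 to 0.498 and was below 1 with all 9. The limma adjusted p of *Cxcl2* was under 0.05 with 4 of the 9 references (range 0.000142 to 0.555) and that of *Ccl11* with 2 (range 0.0166 to 0.972). The share of the array called lower by limma was 33.3% with *Actb* and 57.7% with *B2m*, where both chemokines were called. It was 14.1% with *Gusb* and 2.56% with the array median, where *Cxcl2* was called. For *Ccl2* and *Cxcl1* the limma adjusted p was under 0.05 with 0 of the 9, with lowest values of 0.135 and 0.171. Within each of *B2m*, *Gusb*, *Hsp90ab1*, the array median and the reverse transcription wells, limma gave the 4 chemokines the same standard error. With *B2m* it was 0.54, although the SD between runs was 0.89 for *Cxcl2* and 0.20 for *Ccl11*. The *Cxcl2* calls with *B2m*, *Gusb* and the array median, and the *Ccl11* call with *B2m*, thus did not use the gene's own run spread.

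**Figure D4:**
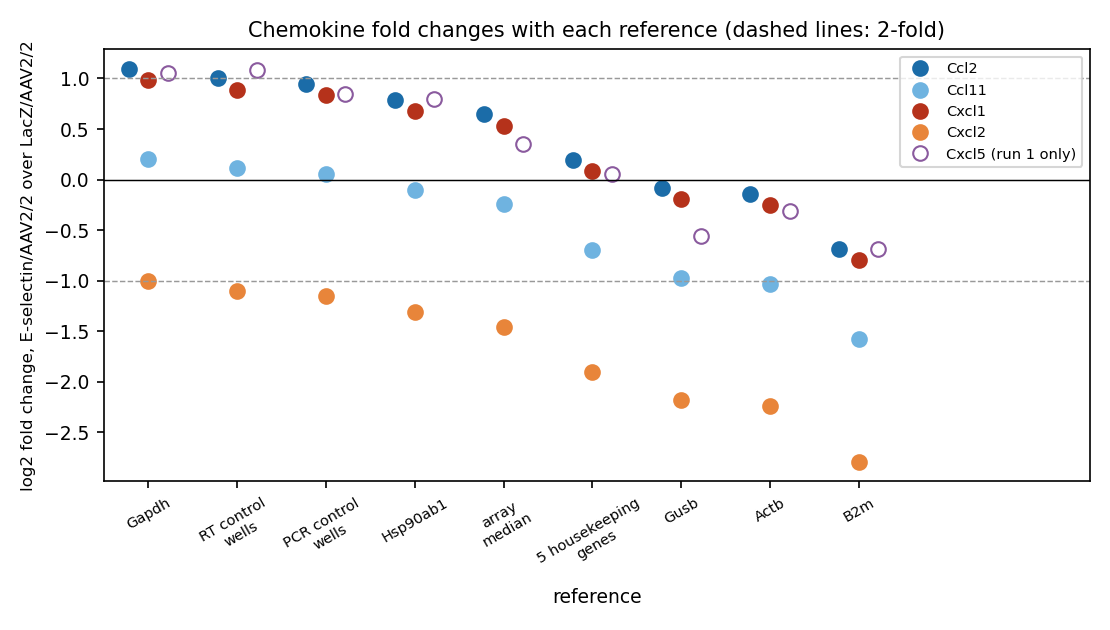
Log2 fold change of E-selectin/AAV2/2 over LacZ/AAV2/2 (y axis) of each chemokine with each of 9 references (x axis, ordered by their shift); points are means of both runs, open circles *Cxcl5* from run 1, and dashed lines mark 2-fold. *Cxcl2* lies at or beyond the lower dashed line with all 9 references (a fold change of 0.498 with *Gapdh*), while the other 4 genes cross 0.

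Other genes of the array that act upstream or downstream of these chemokines were described beside them. Of 5 cytokines that induce chemokines or granulocytes, 3 had both runs, and their median log2 fold change was 1.08 on the housekeeping scale, against -0.31 for the 4 chemokines and -0.45 for all 78 genes. *Tnf*, a main inducer of chemokine genes, had ratios of 2.08 and 2.15 in the 2 runs, and *Il6* of 4.16 and 1.24. *Il1b*, the interleukin-1β gene, had 0.503 and 0.934, which became 1.00 and 1.64 on the *Gapdh* scale. *Csf3*, the granulocyte growth factor gene, had a ratio in run 2 only (0.665, or 1.16 on the *Gapdh* scale), and *Ifng* in neither run. The direction of *Il1b* by the mean of both runs, and that of *Csf3*, thus turned with the reference. On the housekeeping scale, 0 of the 3 passed the adjusted limma test (1 higher at an unadjusted p under 0.05, beside 6.41% of the array). Only *Tnf* did so on the *Gapdh* scale (3.94-fold, limma adjusted p = 0.0362, beside 5.13% of the array called higher). *Cxcl2* and *Tnf* thus lay on opposite sides of 1 in both runs on both scales.

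All 5 matrix protease genes, whose products leukocytes use while crossing vessel walls, had both runs and lay below 1 on the housekeeping scale, as did 58 of the 78 array genes, and their median log2 fold change was -0.82. Of the 5, 0 passed the adjusted limma test and 4 were lower at an unadjusted p under 0.05, beside 34.6% of the array. Of these, *Mmp9*, the gelatinase of neutrophils and macrophages, had ratios of 0.578 and 0.552, and *Mmp14*, a membrane-bound protease, 0.517 and 0.398. *Plau*, the urokinase gene, had 0.925 and 0.595. On the *Gapdh* scale, 3 of the 5 were above 1 and 2 below, with a median of 0.08, beside 64 of the 78 genes above 1.

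Chemokines are made by endothelial cells, muscle and leukocytes, and in bulk RNA fewer cells of a type and less RNA per cell cannot be told apart. Of the leukocyte and skeletal muscle markers listed, 0 of 6 and 0 of 3 are on the array, so the labelled tissue could not be checked against its markers. The 8 endothelial markers had a median log2 fold change of -0.25 on the housekeeping scale (1 above 1 and 7 below) and 0.65 on the *Gapdh* scale (5 above and 3 below). Over the 78 array genes the medians were -0.45 (20 above and 58 below) and 0.45 (64 above and 14 below). On either scale 0 of 8 passed the adjusted limma test. With unadjusted p under 0.05 there were 3 lower on the first scale (34.6% of the array) and 1 higher on the second (21.8% of the array). By the mean of both runs they ranged from *Pecam1* (1.11 and 0.921 on the housekeeping scale) to *Flt1*, the VEGF receptor 1 gene (0.578 and 0.404). Each of the 8 had a higher ratio than *Cxcl2* in both runs, as did every other array gene with a ratio except *Bai1* in run 2. Their part in the chemokine ratios was not tested.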

How the data were processed

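Groups and runs follow the labels of the 4 samples. The authors deposited a ratio per gene and run (2^-ΔΔCt, SYBR Green RT-qPCR on a Bio-Rad CFX96), and raw Ct by well without gene names. With *Gapdh* subtracted, the Ct gave the ratio (within 0.015 on the log2 scale) in 0 of 83 wells in run 1 and 1 of 90 in run 2, so no gene name was placed on a Ct. Missing and error entries were read as missing. From each log2 ratio was subtracted the run's mean over *Actb*, *B2m*, *Gapdh*, *Gusb* and *Hsp90ab1*, the genes the study's methods name. Fold changes are geometric means over both runs. Two-sided limma tests (lmFit, eBayes, Benjamini-Hochberg adjustment) used the log2 ratios of the 78 array genes with both runs, in place of minus ΔCt of 4 runs, and the script was tested on simulated data. The small number of arrays limits precision, and how late a gene amplified is unknown. Alternatives were 8 other references, leaving out a run, the mean of ratios, other thresholds, limma with housekeeping genes or robust variances, and other class definitions. The genes named were the members, the housekeeping genes, the 2 genes nearest each member and fixed lists of cytokines, proteases and cell markers. Members and lists were chosen with earlier results of these data known. Of a list of 6 other chemokines and receptors (*Cxcl9*, *Cxcl10*, *Pf4*, *Ccr2*, *Ccr3*, *Cxcr2*), 0 are on the array. Python 3.11.15, numpy 2.4.6, pandas 2.3.3, matplotlib 3.10.9, R 4.3.3 and limma 3.58.1 were used.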

Additional observations from a re-analysis of the deposited data

How the results depend on the processing

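*Cxcl2* stayed below 1 under every reference, with either run left out and with the mean of ratios, and the other chemokines depended on the reference. For *Cxcl2* the references are not separate checks, since *Gapdh* had the smallest mean shift and the others could only lower the value. The log2 fold changes that turned were, with *Actb*, *B2m* and *Gusb* as reference, -0.14, -0.69 and -0.08 for *Ccl2*, -0.25, -0.80 and -0.19 for *Cxcl1*, and -0.31, -0.69 and -0.56 for *Cxcl5*. *Ccl11* turned to 0.20 with *Gapdh*, 0.11 with the reverse transcription control wells and 0.057 with the positive PCR control wells. *Cxcl5* kept its direction with *Gapdh* (1.05), *Hsp90ab1* (0.80), the array median (0.35), the positive PCR wells (0.84) and the reverse transcription wells (1.09). Calls gained under limma were *Ccl11* with *Actb* (-1.03) and *B2m* (-1.58), and *Cxcl2* with *Actb* (-2.24), *B2m* (-2.79), *Gusb* (-2.18), the array median (-1.46, adjusted p = 0.0226) and robust variances (-1.91, adjusted p = 0.0453). Of the 78 array genes, limma then called 26 lower with *Actb*, 45 with *B2m*, 11 with *Gusb*, 2 with the array median and 9 with robust variances. With *B2m*, *Gusb* or the array median the 4 chemokines had the same standard error, so a gene's own run spread did not enter these calls. The reference shifts a run by construction, and other causes were not tested. Leaving out 1 run gave -0.088 to 0.48 for *Ccl2*, -0.68 to 0.85 for *Cxcl1*, -0.70 to -0.69 for *Ccl11*, -2.40 to -1.41 for *Cxcl2* and 0.17 to 1.15 for the difference of CC and CXC means. That difference was 1.66 without *Cxcl1* and -0.34 without *Cxcl2*. Over the array, 3 genes were more than 2-fold higher and 9 lower, with 6 and 29 at a 1.5-fold threshold, 1 and 2 at a 3-fold threshold, and 2 and 4 when both runs had to pass 2-fold. With robust variances limma called 2 higher, against 0 higher and 0 lower without. The limma test is paired, since each ratio is formed within a run number (-1.91 for *Cxcl2*). The fit without this replicate block was not run, because it needs levels by gene and run, which the ratios do not hold.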
